A study of Mus musculus with 18 samples.

Results

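The genes described here encode the factors of translation initiation and their close regulators, and they were measured in whole mouse ovaries with and without Elavl2. They were chosen by name: every non-control probe whose gene name in the scanner files starts with Eif and a digit, leaving out Eif4enif1. That rule found 112 of 41174 probes, for 53 genes. Of these, 106 probes of 52 genes passed a filter on dim signals, which asked that some group had the probe well above background on each of its 3 arrays. The gene without a kept probe was Eif2s3y, a Y-linked gene whose single probe was well above background on 0 of the 18 arrays of XX gonads. No probe carried the name Eif4e1b, so that eIF4E family member is not analysed here.

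RNA came from XX gonads of mice, labelled wild type or knockout for Elavl2, the gene of an ELAV-type RNA-binding protein. Gonads were taken before birth, at E15.5 and E17.5 (days of embryonic development), and on the day of birth, P0, with 3 arrays per genotype and stage, 18 in all. The labels name no strain, no knockout allele and no parent line. They call the samples mixed and leave unsaid whether each array had an animal of its own. The p-values therefore measure only how these samples spread.

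Initiation brings the small ribosomal subunit to the start codon. The eIF2 complex carries the initiator tRNA and is recharged by eIF2B, while eIF3, eIF1 and eIF1A hold the small subunit ready. The cap-binding protein eIF4E, the scaffold eIF4G and the helicase eIF4A form eIF4F, which loads that subunit onto capped mRNA, and the 4E-binding proteins compete with eIF4G for eIF4E. Kinases of eIF2 slow initiation under stress. Oocytes store many mRNAs untranslated, and the choice among cap-binding proteins and their partners is one known way of doing so.

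Each value is a log2 signal with the 75th percentile of its array subtracted, so a value of 0 is the signal of the 75th percentile probe. Levels are compared between groups for 1 probe and never between probes. The fitted differences come from a limma model over all arrays with the 6 groups and the run as terms. They are knockout minus wild type unless stated, with a standard error after ±, and called genes are those with an adjusted p under 0.05 (Benjamini-Hochberg, over 19299 genes). The run, A or B, is read from the form of the file names and matches the scan day. Run A held the whole of E15.5 and, from E17.5, the replicate 3 arrays of both genotypes, and run B held all others. The arrays lay on 7 slides. Wild type and knockout shared no slide at E15.5 or P0, and at E17.5 only the run A pair did. Differences within run B at E17.5 are thus also differences between slides. Outside the run A pair, an effect of the slide cannot be told apart from that of the genotype.

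The signal of Elavl2 itself ran from 1.97 to 2.28 on wild type arrays and from 1.88 to 2.11 on arrays labelled knockout at E15.5, with overlap. It was lower in the knockout by 0.87 at E17.5 (log2 difference -0.87 ± 0.12, adjusted p = 0.0045) and at P0 (-1.36 ± 0.12, adjusted p = 9.1e-06), without overlap between the genotypes. The E15.5 arrays therefore carry their genotype by label only, and whether the probe lies in the deleted part is not given in the sources used here. Between arrays of a group, Pearson's r across genes was 0.9649 to 0.9948. Germ cell markers were above background on all arrays. Among the 8, 3 were higher and 0 lower in the P0 knockout, with a median log2 difference of 0.22. Of 13 markers of growing oocytes, 11 were lower in the P0 knockout, with a median log2 difference of -3.84, and 4 were lower at E17.5. Of 7 endothelial markers, 5 were higher at P0. Fewer cells of a type and less RNA per cell cannot be told apart in whole ovaries, and the part of these shifts in the values below was not tested.

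At P0, 18 of 52 initiation factor genes were called between the genotypes, 11 higher and 7 lower in the knockout. This was 34.6% of them, near the 34.5% of all genes that were called (18.3% higher and 16.1% lower). At E15.5, 2 of 52 were called (3.85%), both lower, where 1.62% of all genes were called, 0.969% higher and 0.648% lower. At E17.5 it was 4 of 52 (7.69%), 1 higher and 3 lower, where 4.16% of all genes were called, 1.33% higher and 2.82% lower. None of the 52 was called with a change of at least 2-fold at any stage, while 0.269%, 0.518% and 6.32% of all genes were at E15.5, E17.5 and P0. The fitted differences lay between -0.79 and 0.41 at P0, and those of all genes between -5.32 and 3.79. The median over the 52 was -0.00054 at P0, beside -0.00088 over all genes. The arrays of the genotypes did not overlap for 25%, 21.2% and 44.2% of the 52 at E15.5, E17.5 and P0. Over 19250 genes the shares were near these, at 23.8%, 19.1% and 48.3%, so a lack of overlap does not set a gene apart.

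**Figure D1:**
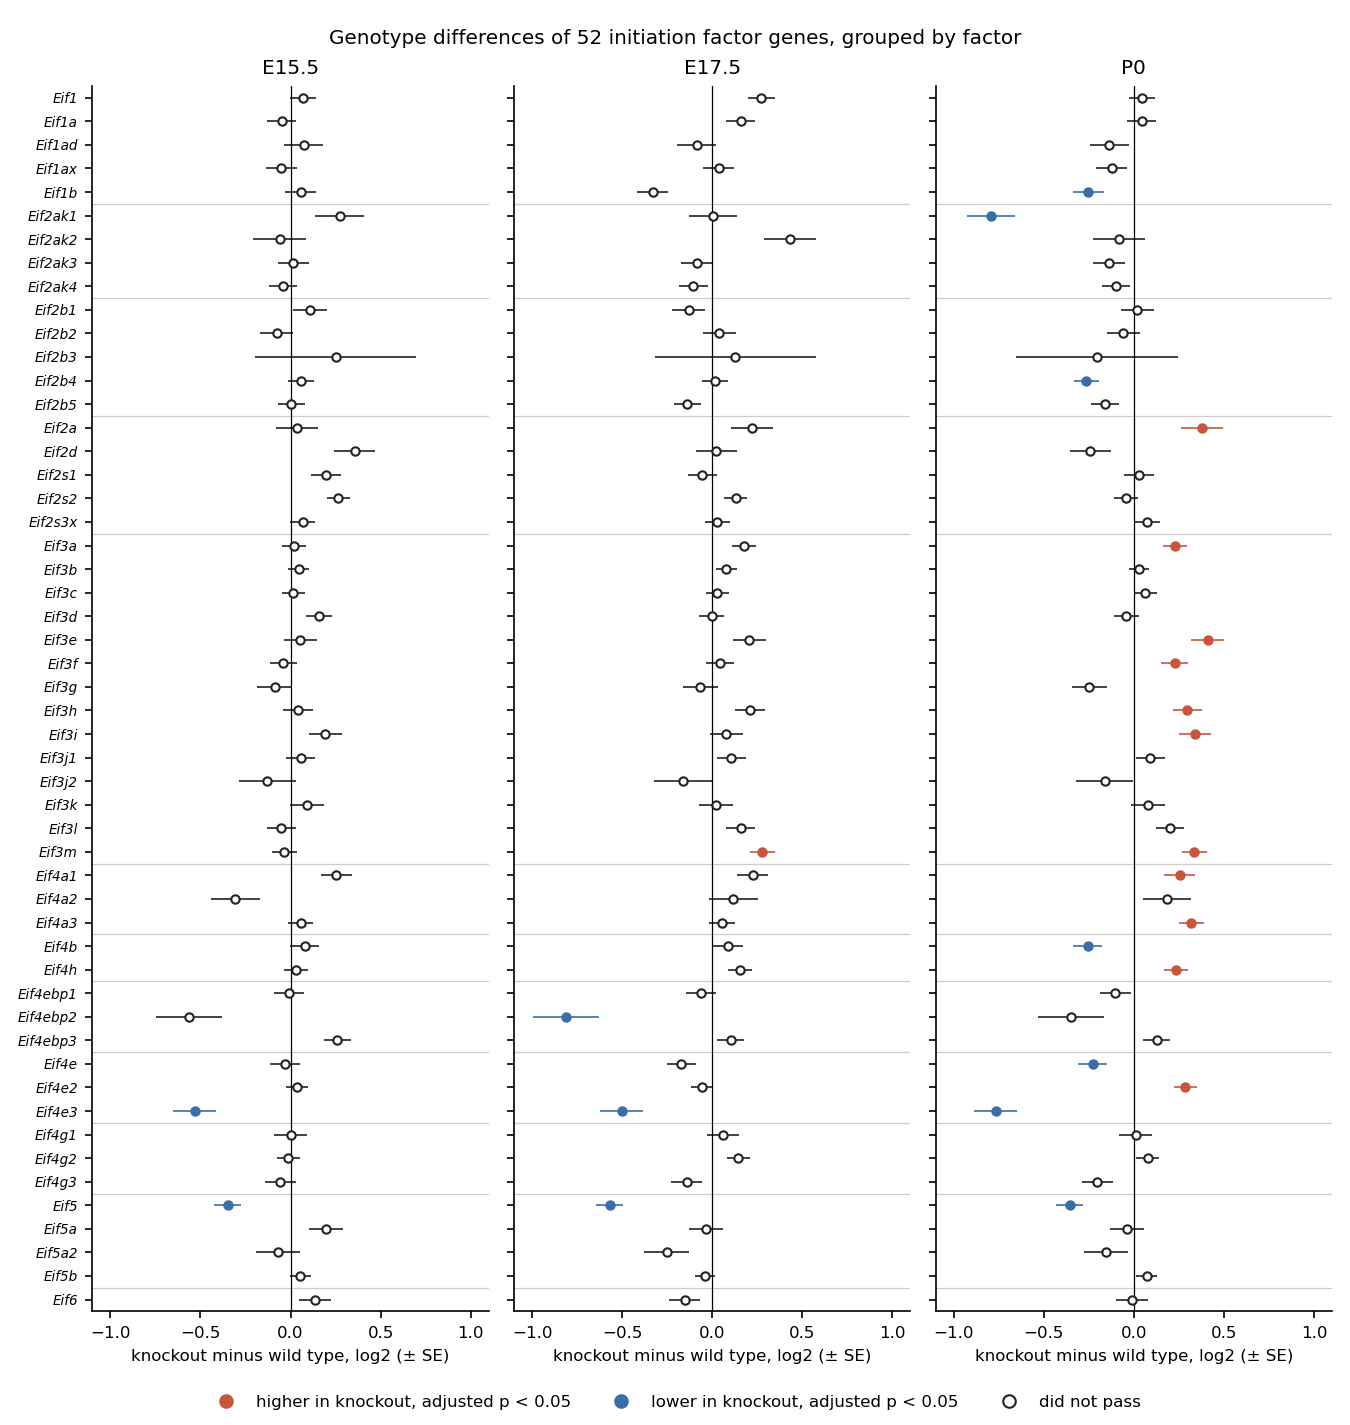
Fitted log2 difference, knockout minus wild type, of the 52 genes at E15.5, E17.5 and P0 (bars: standard error), grouped by factor and separated by lines. Filled points passed an adjusted p of 0.05: 18 genes at P0, 4 at E17.5 and 2 at E15.5, all inside 1 log2 unit.

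The split between higher and lower depended on the scaling. With the 75th percentile, 61.1% of the genes called at P0 were higher. With quantile normalization 6 were higher and 10 lower (37.5% higher), with the array median 13 and 2 (86.7%), and with normexp background correction and quantile normalization 5 and 12 (29.4%). The array median moved the median of all genes at P0 to 0.14, and no other scaling moved it past 0.1 there. Under all 4 scalings, 4 genes were called higher (Eif2a, Eif3e, Eif3i and Eif4e2) and 2 lower (Eif2ak1 and Eif4e3). The same check left Eif4e3 and Eif5, both lower, at E17.5 and 0 genes at E15.5.

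**Figure D2:**
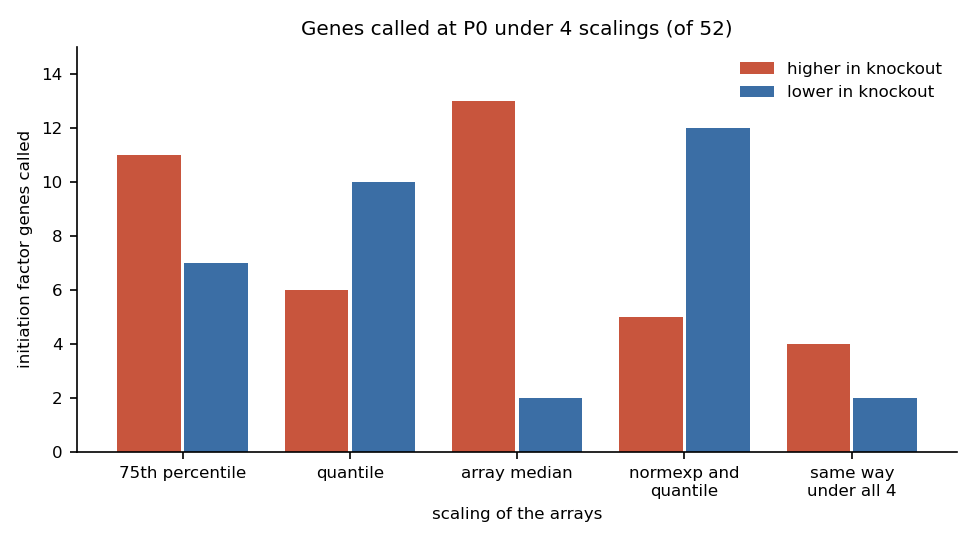
Number of the 52 genes called higher or lower in the P0 knockout under 4 ways of scaling the arrays, and called the same way under all 4. The 75th percentile gave 11 higher and 7 lower, the array median 13 and 2, and 4 higher and 2 lower were shared by all 4.

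Among the cap-binding proteins, Eif4e3 was lower in the knockout at all 3 stages. Eif4e3 encodes a distant relative of eIF4E that binds the cap. Its 60-base probe is shown because the call rests on it and the gene's other probe gave smaller values. The file places it on the minus strand, chr6:99576992-99582254 of mm9, a span longer than the probe, so that it joins pieces of the transcript. Read from its first base it runs through 16 codons to a TAA, in capitals, and 9 bases beyond.
Eif4e3 probe: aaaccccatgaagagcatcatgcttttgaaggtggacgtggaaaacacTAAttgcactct

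At E15.5 the wild type arrays read -1.35, -1.33 and -1.48 for Eif4e3, and the arrays labelled knockout -2.01, -1.85 and -1.90. Every knockout array lay below every wild type array. The fitted difference was -0.53 ± 0.12 (adjusted p = 0.047). At E17.5 the wild type read -0.84, -1.15 and -1.68 and the knockout -1.52, -1.44 and -2.22, which overlap. The low wild type array and the lowest knockout array were the pair from run A. Within run A the difference was -0.54 (1 array each) and within run B -0.49 (2 arrays each), and the fit gave -0.50 ± 0.12 (adjusted p = 0.035). At P0 the wild type read -0.40, -0.59 and -0.73 and the knockout -1.08, -1.51 and -1.44, again without overlap (-0.77 ± 0.12, adjusted p = 0.00046). The P0 call was kept in 20 of 21 alternatives and ended only where a 2-fold change was required. The E15.5 call was lost in 14 of 21, in each fit without 1 of the E15.5 arrays among them (adjusted p 0.083 to 0.18), and the E17.5 call in 14 of 23. With the replicate number as a block the E17.5 value had an adjusted p of 0.058. The other Eif4e3 probe, at chr6:99575493-99575552, gave -0.15, -0.06 and -0.22 at the 3 stages, and none passed in the fit over all 29203 kept probes (adjusted p 0.52, 0.76 and 0.10).

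Eif4e, the ubiquitous cap-binding subunit of eIF4F, moved less. At E15.5 the wild type read 3.17, 3.16 and 3.23 and the arrays labelled knockout 3.11, 3.21 and 3.14. For E17.5 the values were 3.51, 3.66 and 3.57 in wild type and 3.53, 3.39 and 3.30 in the knockout, and for P0 they were 3.67, 3.86 and 3.95 against 3.69, 3.55 and 3.55. The genotypes overlapped at every stage. The fitted differences were -0.03 ± 0.08, -0.17 ± 0.08 and -0.23 ± 0.08, and only the last passed (adjusted p = 0.045). That call was lost in 14 of 21 alternatives, and the other Eif4e probe gave 0.16 at P0 (adjusted p = 0.17 over all probes).

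Set against Eif4e on the same array, Eif4e3 was lower in the knockout by 0.50 at E15.5 (the difference of the log2 ratios was -0.50). It was -0.33 at E17.5 and -0.54 at P0. The ratio was lower in every knockout array than in every wild type array at E15.5 and at P0, and the genotypes overlapped at E17.5. Within the runs of E17.5 they did not: the difference was -0.27 in run A (1 array each) and -0.36 in run B (2 arrays each). The exact two-sided permutation test of 3 arrays against 3 cannot give less than 0.1, and it gave p = 0.1, 0.4 and 0.1. Permuting genotype labels within each stage, over 8000 regroupings, gave a mean difference of -0.46 with an exact p of 0.00325 (0.013 adjusted over the 4 tests). Permuting within stage and run, chosen after seeing the data, gave an exact p of 0.167 at E17.5 (12 regroupings) and 0.00042 over the stages (4800 regroupings), each the smallest it can give. Each gene's other probe gave a smaller mean difference of -0.23 (exact permutation p = 0.0025), a check chosen after seeing the data. The ratio shows that the probes changed unequally, and it has no meaning as a ratio of transcript levels.

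Eif4e2 encodes 4EHP, a cap-binding protein that does not bind eIF4G and takes part in repressing mRNAs. At P0 the wild type read 2.39, 2.44 and 2.46 and the knockout 2.75, 2.61 and 2.80, without overlap. The difference was 0.29 ± 0.06 (adjusted p = 0.0040), and all 3 other kept probes were higher too, with 2 of them passing in the fit over probes (0.35 and 0.37). At E17.5 the difference was -0.06 ± 0.06 (adjusted p = 0.63). The change from E17.5 to P0 in the genotype difference was itself called (0.34 ± 0.09, adjusted p = 0.029), in a comparison that called 10.4% of all genes (4.28% higher and 6.12% lower) and 2 of the 52. It was lost with the replicate block (adjusted p = 0.093) and in 17 of 28 alternatives in all.

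**Figure D3:**
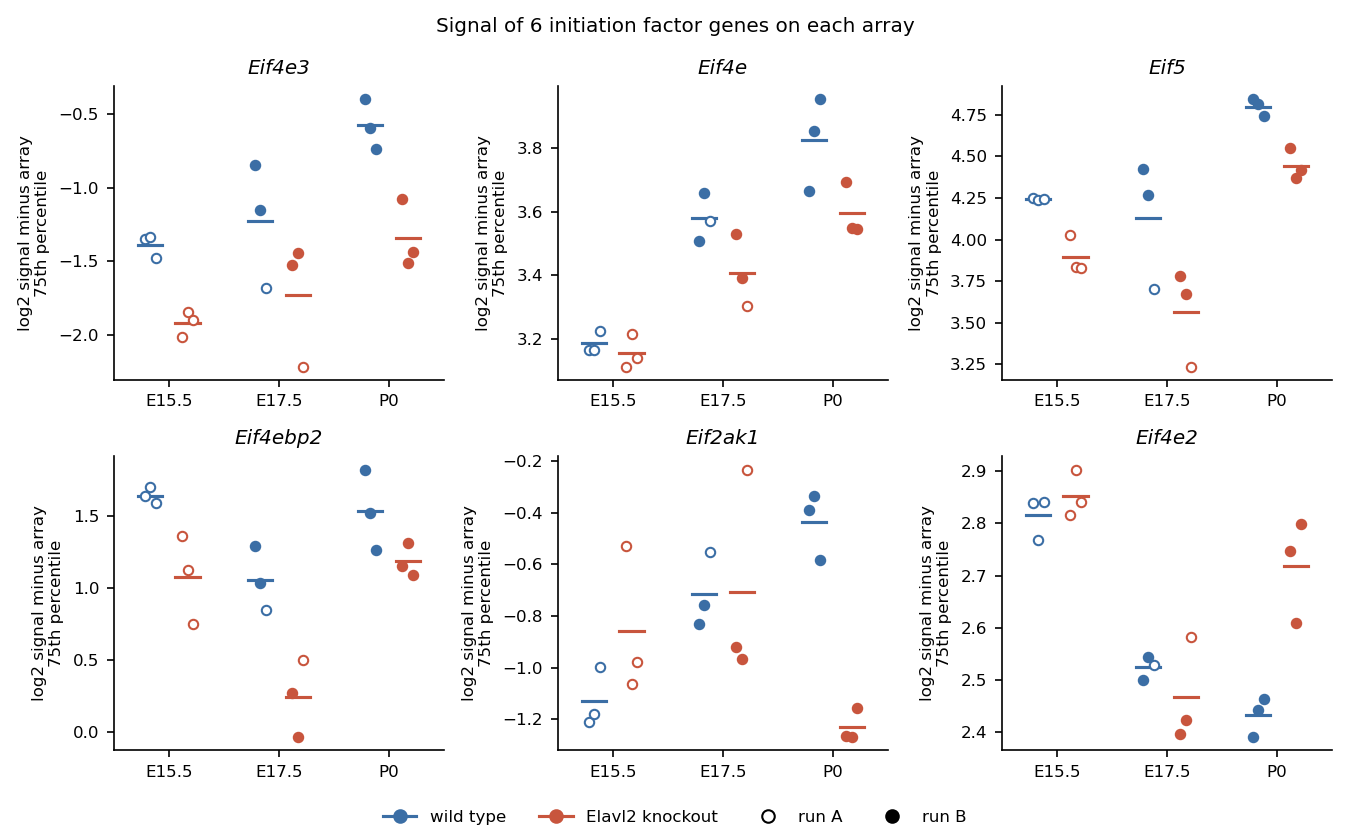
Log2 signal relative to the array's 75th percentile for Eif4e3, Eif4e, Eif5, Eif4ebp2, Eif2ak1 and Eif4e2 on each array, by stage and genotype (line: mean of 3 arrays, open points: run A, filled points: run B). Eif4e3 read -0.40 to -0.73 in P0 wild type and -1.08 to -1.51 in the knockout, and the run A arrays at E17.5 lie apart for Eif4e3, Eif5 and Eif2ak1.

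Of the 4E-binding proteins, which block the assembly of eIF4F, Eif4ebp2 was lower in the E17.5 knockout. Wild type arrays read 1.29, 1.03 and 0.84 there and knockout arrays 0.27, -0.04 and 0.50. The groups did not overlap, and the difference was -0.81 ± 0.18 (adjusted p = 0.028). It was -1.05 within run B and -0.34 within run A, so the single pair of run A showed a smaller gap. That pair shared a slide, and the run B arrays of unlike genotype did not. The replicate block raised the adjusted p to 0.076. Without knockout replicate 2 it was -0.66 (adjusted p = 0.15), and the gene has 1 kept probe. At E15.5 (-0.56 ± 0.18, adjusted p = 0.16) and P0 (-0.35 ± 0.18) it did not pass. Eif4ebp1 and Eif4ebp3 were not called at any stage, with differences from -0.10 to 0.26 on the probes used. A dimmer Eif4ebp1 probe gave 0.66 at P0 (adjusted p = 0.0054 over probes), against -0.10 on the brighter one. The dimmer Eif4ebp3 probe was called higher at E15.5 (0.31, adjusted p = 0.032) and P0 (0.25, adjusted p = 0.012).

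The other subunits of eIF4F and their helpers were called at P0 alone. Eif4a1 and Eif4a3, RNA helicases of which Eif4a3 works in the exon junction complex, were higher by 0.25 ± 0.09 and 0.32 ± 0.07 (adjusted p = 0.038 and 0.0044). The Eif4a1 differences at E15.5 and E17.5, which did not pass, were of like size (0.25 and 0.22). For Eif4a1 the genotypes did not overlap at any stage. The helicase partner Eif4h was higher (0.23 ± 0.07, adjusted p = 0.017). Eif4h lost this call in 7 of 21 alternatives, quantile normalization and normexp among them. Eif4a3 lost its call with normexp. Eif4b, the other partner, was lower on its brightest probe (-0.26 ± 0.08, adjusted p = 0.027), but another of its probes was called higher (0.32, adjusted p = 0.018 over probes), and the mean of its 3 probes gave 0.0028. The direction of Eif4b is therefore unsettled. The scaffolds Eif4g1, Eif4g2 and Eif4g3 did not pass, with differences of 0.01, 0.08 and -0.20. Eif4g3 was called lower with quantile normalization and with normexp, and on its other probe (-0.35, adjusted p = 0.0085 over probes).

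Eif4e was called lower and Eif4a1 higher at P0 with the 75th percentile, and their promoters share a motif of letters. No other scaling called both: Eif4a1 lost its call with quantile normalization and with normexp, and Eif4e with the array median. The hexamer CACGTG, an E-box that reads the same on both strands, is known from the Eif4e promoter as a site for Myc. It was searched in the 250 bases before each start in the RefSeq table of assembly GRCm38.p6. There it lay in 9 of the 42 initiation factor genes in the table (21.4%) and in 6.86% of the 27025 genes, or 6.02% of the 32851 windows. The 9 were Eif1b, Eif3f, Eif3k, Eif4a1, Eif4e, Eif4g1, Eif4h, Eif5a and Eif5a2. Of these, 3 were called higher at P0 (Eif3f, Eif4a1 and Eif4h), 2 lower (Eif1b and Eif4e) and 4 were not called. Of all genes tested, 18.3% were called higher and 16.1% lower there. A gene counted if the window of any of its listed starts held the hexamer. Whether the hexamer goes with the calls was not tested. The windows of these eIF4F genes are shown with the hexamer in capitals, on the plus strand at chr3:138527018-138527267 and on the minus strand at chr11:69672424-69672673. For Eif4e this is the second of 2 starts listed, and the window of the first holds 0 copies of the hexamer.
Eif4e promoter: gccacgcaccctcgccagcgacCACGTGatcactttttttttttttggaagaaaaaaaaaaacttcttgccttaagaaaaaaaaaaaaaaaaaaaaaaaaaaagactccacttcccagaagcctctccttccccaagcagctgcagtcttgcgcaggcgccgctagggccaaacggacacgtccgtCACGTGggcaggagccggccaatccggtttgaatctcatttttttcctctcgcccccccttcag
Eif4a1 promoter: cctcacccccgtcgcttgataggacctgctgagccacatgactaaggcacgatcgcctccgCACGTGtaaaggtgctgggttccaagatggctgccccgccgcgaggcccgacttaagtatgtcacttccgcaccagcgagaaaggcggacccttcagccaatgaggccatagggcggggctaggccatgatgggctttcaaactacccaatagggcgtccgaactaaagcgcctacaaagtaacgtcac

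Eif5 encodes the GTPase-activating protein that triggers release of eIF2 at the start codon. It was called lower in the knockout at all 3 stages, as was Eif4e3, and 29 of all genes tested were. Its brightest probe, on the plus strand at chr12:112778375-112778434 of mm9, reads through 19 codons from its second base without a stop.
Eif5 probe: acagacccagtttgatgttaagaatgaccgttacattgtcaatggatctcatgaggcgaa

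At E15.5 Eif5 read 4.25, 4.24 and 4.24 in wild type and 4.03, 3.83 and 3.83 on arrays labelled knockout (-0.35 ± 0.08, adjusted p = 0.040). That call was lost in 14 of 21 alternatives, among them 5 of the 6 fits without 1 array (adjusted p 0.11 to 0.14). At E17.5 it read 4.42, 4.27 and 3.70 against 3.78, 3.67 and 3.24, where the run A wild type array lay below 1 knockout array of run B. The difference was -0.47 within run A and -0.62 within run B, and the fit gave -0.57 ± 0.08 (adjusted p = 0.0032). With the replicate block it kept its call (adjusted p = 0.026). At P0 it read 4.84, 4.82 and 4.74 against 4.55, 4.37 and 4.42, without overlap (-0.35 ± 0.08, adjusted p = 0.0033). The gene's other probes, at chr12:112784093-112784152 and chr12:112779767-112779826, gave 0.04, -0.08 and -0.18 and then -0.15, -0.15 and 0.22, none passing. The mean of the 3 probes passed at none of the stages (adjusted p up to 0.37), so the fall was that of 1 probe.

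The kinases of eIF2 differed among themselves. Eif2ak1 encodes HRI, the heme-regulated kinase best known from red cell precursors. At P0 the wild type read -0.39, -0.33 and -0.58 and the knockout -1.27, -1.27 and -1.15. All knockout arrays were lower, and the difference was -0.79 ± 0.13 (adjusted p = 0.00076), which held its call without any 1 array. A second probe, at chr5:144645612-144645671, gave -0.82 (adjusted p = 0.00023 over probes), while another, at chr5:144664680-144664739, gave -0.04. Eif2ak2, Eif2ak3 and Eif2ak4, which encode the kinases PKR, PERK and GCN2, were not called at any stage (differences from -0.14 to 0.43).

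The Eif2ak1 difference at P0 departed from that at E17.5 (-0.80 ± 0.19, adjusted p = 0.020), a call lost in 10 of 28 alternatives, the replicate block among them (adjusted p = 0.073). At E17.5 the wild type read -0.83, -0.76 and -0.55 and the knockout -0.92, -0.97 and -0.23 (0.01 ± 0.13). The high knockout array was replicate 3, on which 10 red cell genes also had their highest mean of that stage, 1.76, against -2.22 to 0.35 on the other 5 arrays. Without that array the departure was -0.64 (adjusted p = 0.070), and without its wild type counterpart it was also -0.64 (adjusted p = 0.069). At E15.5 knockout replicate 1 was the highest for both, at -0.53 for Eif2ak1 and 2.31 for the red cell genes. In wild type at E15.5 and E17.5 they ran opposite ways. E15.5 replicate 1 had the highest red cell mean of its group (1.42) and the lowest Eif2ak1 (-1.21). E17.5 replicate 3 had the lowest red cell mean of its group (-2.22) and the highest Eif2ak1 (-0.55). In wild type at P0, replicate 2 had the highest of both (-0.67 and -0.33) and replicate 3 the lowest of both (-3.13 and -0.58). At P0 the red cell mean was -3.13 to -3.32 on the knockout arrays and -3.09, -0.67 and -3.13 in wild type, and 0 of the 10 genes were called. The part of red cells in the Eif2ak1 values was not tested.

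Of the eIF2 complex and related factors, Eif2a was called, higher at P0. Eif2a encodes eIF2A, a tRNA-binding factor separate from the eIF2 complex. Wild type arrays read 0.29, 0.81 and 0.58 and knockout arrays 0.90, 0.91 and 1.00 (0.38 ± 0.12, adjusted p = 0.023). Its other probe gave 0.22 and did not pass. The subunits Eif2s1, Eif2s2 and Eif2s3x lay between -0.04 and 0.07 at P0 and did not pass at any stage. Of 5 eIF2B subunits, which recharge eIF2, Eif2b4 was called (-0.26 ± 0.07, adjusted p = 0.012), with a second probe lower as well (-0.46). Eif2b3 was well above background on 7 arrays only.

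Of 14 eIF3 genes, 6 were higher in the P0 knockout and 0 lower, with a median of 0.15 over all 14, and 11 of the 14 had positive differences. Over all genes 18.3% were called higher, 16.1% lower and 49.9% were positive. The eIF3 count was 3 higher and 1 lower with quantile normalization (median 0.04), the same 3 and 1 with normexp (0.10), and 7 and 0 with the array median (0.28). Eif3g was the gene called lower. Eif3e read 4.01, 4.04 and 4.25 in wild type and 4.55, 4.43 and 4.55 in the knockout, without overlap (0.41 ± 0.09, adjusted p = 0.0043). Its second probe gave 0.37 and passed. Eif3i read 1.63, 1.66 and 1.79 against 1.97, 2.10 and 2.02 (0.34 ± 0.09, adjusted p = 0.012). These were the eIF3 genes called under all 4 scalings. Eif3m (0.34), Eif3h (0.30), Eif3a (0.23) and Eif3f (0.23) lost their calls under 1 or more of the others. Eif3m was also called at E17.5, where it read 4.33, 4.31 and 4.46 against 4.59, 4.68 and 4.66 (0.28 ± 0.07, adjusted p = 0.043). That call was lost under 18 of 23 alternatives, the replicate block included (adjusted p = 0.11).

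The count for eIF3 stands beside 43 of 78 genes for cytosolic ribosomal proteins higher and 1 lower at P0, with a median of 0.21. That count also moved with the scaling, to 6 higher and 3 lower under quantile normalization, 56 and 0 under the array median, and 9 and 2 with normexp. One Eif3c probe at chr7:133707950-133708009 was lower at E15.5 and E17.5 (-0.67 at both, adjusted p = 0.019 and 0.011 over probes) and at P0 gave -0.02, while the brightest Eif3c probe gave 0.01, 0.03 and 0.06. At P0 the 4 dimmer Eif3c probes gave 0.32, -0.32, -0.02 and 0.23, and 1 of them was called higher. The dimmer Eif3j1 probe was called higher at P0 too (0.37, against 0.09 on the brightest).

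The remaining factors were mostly not called. Eif1b, a close copy of the start codon selection factor eIF1, was lower at P0 (-0.25 ± 0.09, adjusted p = 0.038). That call was lost in 12 of 21 alternatives. At E17.5 its difference was -0.33, also without overlap. It did not pass there, but was called lower with quantile normalization and with normexp. Eif1, Eif1a, Eif1ax and Eif1ad did not pass on their brightest probes. Neither did Eif5a, Eif5a2 and Eif5b, nor Eif6, which keeps ribosomal subunits apart. Dimmer probes of 4 of these genes passed at P0 in the fit over probes, for Eif1a (0.42), Eif1ad (0.50, where the brightest gave -0.14), Eif5b (0.33, and another -0.43 at E17.5) and Eif6 (-0.25).

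Probes of 1 gene often differed. Of the 52 genes, 35 had several kept probes and 17 had 1. In the fit over all 29203 kept probes, which called 32.5% of them at P0, 17 of the genes' brightest probes were called, since Eif4e missed the threshold there (adjusted p = 0.050). Of these 17, 7 had no other probe (Eif1b, Eif3f, Eif3h, Eif3i, Eif3m, Eif4a3 and Eif4h). For 5, another probe was called the same way (Eif2ak1, Eif2b4, Eif3e, Eif4a1 and Eif4e2). For 4 no other probe was called (Eif2a, Eif3a, Eif4e3 and Eif5), and for Eif4b another was called the opposite way. In that fit, 2.06% of probes were called at E15.5 and 4.81% at E17.5, and none of the 2 and 4 initiation factor genes called then was called on a second probe (Eif4ebp2 and Eif3m have 1).

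**Figure D4:**
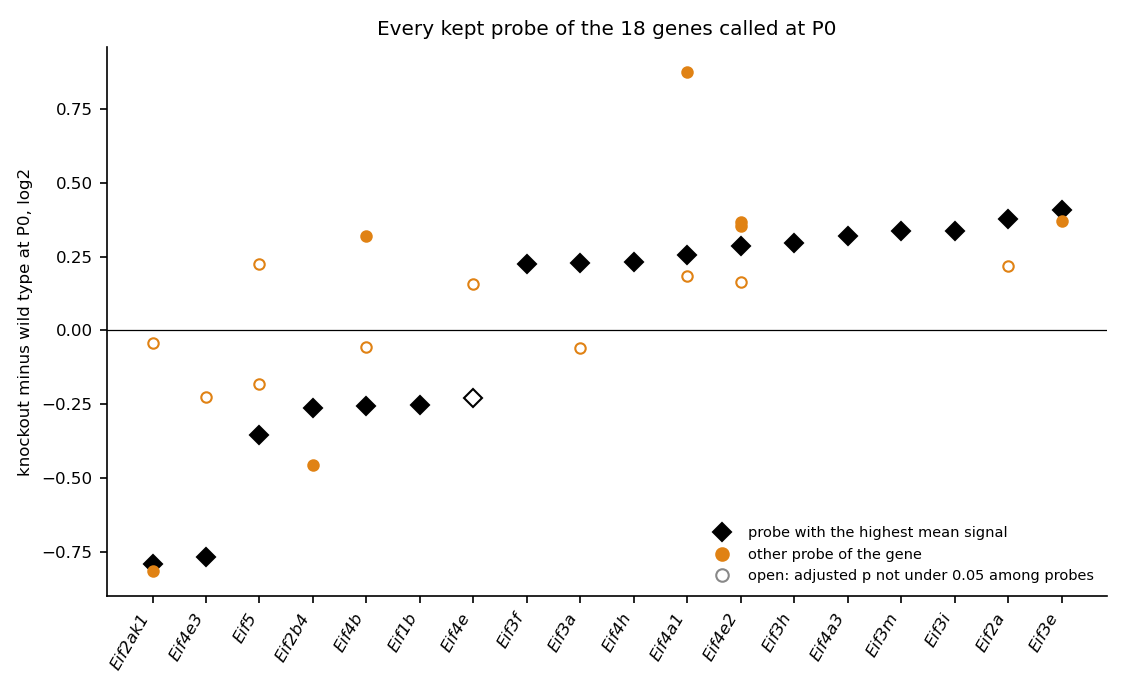
Fitted log2 difference at P0 of every kept probe of the 18 genes called there (diamond: the probe with the highest mean signal, circle: other probes, filled: adjusted p under 0.05 in the fit over probes). The probes of Eif3e and Eif4e2 lie together, while those of Eif4b lie at -0.26, 0.32 and -0.05.

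Changes of the 52 genes between stages spanned a wider range, from -1.28 to 1.13, than those between genotypes. From E15.5 to E17.5 in wild type, 6 of 52 rose and 10 fell, where 26.4% of all genes were called (15.3% up and 11.1% down). From E17.5 to P0, 19 rose and 6 fell, where 43.3% were called (22.1% and 21.2%). In the knockout 4 rose and 10 fell at the first step, where 21.8% were called (11.8% and 9.98%), and 17 rose and 10 fell at the second, where 37.2% were called (18.2% and 19%). E17.5 is the only stage in both runs, so the run term was estimated from its arrays, and a fitted step from E15.5 can differ from that of the plain means. For Eif5 in wild type the means were 4.24 at E15.5 and 4.13 at E17.5, while the fitted step was -0.49 ± 0.09. Both wild type steps shift with the array median, which moves the median of all genes to -0.18 and -0.15. The second step then held 7 rises and 9 falls, and the first 2 and 20. Quantile normalization gave 8 and 8 at the first wild type step, and normexp with it 10 and 10. The first knockout step held 6 rises and 9 falls with quantile normalization and 1 and 13 with the array median.

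The 4E-binding protein genes took different courses. Eif4ebp1 rose at both steps in wild type, from a mean of 2.79 ± 0.05 (SD, n = 3) at E15.5 to 3.16 ± 0.19 and 3.89 ± 0.07 (fitted 0.52 ± 0.10 and 0.80 ± 0.09, adjusted p = 0.0035 and 3.2e-05). Eif4ebp3 fell at the first step, from 2.32 to 1.05 in wild type (fitted -1.12 ± 0.09, adjusted p = 7.7e-06) and from 2.58 to 1.15 in the knockout (fitted -1.28 ± 0.09). Eif4ebp2 fell and rose again in the knockout, with means of 1.07, 0.24 and 1.18 (fitted -0.81 ± 0.23 and 0.95 ± 0.20, both called), and the first step lost its call with the replicate block (-0.63, adjusted p = 0.063). The wild type means were 1.64, 1.05 and 1.53 (fitted -0.56 ± 0.23 and 0.49 ± 0.20, adjusted p = 0.082 and 0.058). The second steps were not shown to differ between the genotypes (0.46 ± 0.26, adjusted p = 0.27).

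Eif5a2, the second eIF5A gene, rose at the first step from -0.99 to 0.06 in wild type (fitted 1.13 ± 0.15, adjusted p = 0.00026) and from -1.06 to -0.19 in the knockout (0.95 ± 0.15). Eif4b fell at the same step, from 3.20 to 2.28 in wild type (-0.67 ± 0.10) and from 3.28 to 2.37 in the knockout (-0.66 ± 0.10). From E17.5 to P0, Eif3c, a core eIF3 subunit, rose by 0.51 ± 0.07 in wild type and by 0.54 ± 0.07 in the knockout. The helicase Eif4a2 had a step of -0.65 ± 0.14 and of -0.58 ± 0.14 (adjusted p = 0.0031 and 0.0069). Eif4e3 rose from E17.5 to P0 in wild type (0.42 ± 0.13, adjusted p = 0.019), and in the knockout the step was 0.15, which did not pass. The difference between these steps was not called (-0.26 ± 0.17, adjusted p = 0.34). Among the genes named here, Eif4ebp3, Eif4b, Eif5a2, Eif4ebp1, Eif3c and Eif4a2 kept the named wild type call under all 4 scalings, with 1 exception. The array median ended the call of the first step of Eif4ebp1, as it did that of the second step of Eif4e3. With the mean of a gene's probes, the wild type steps of Eif3c and Eif4e3 lost their calls, and the other named wild type calls were kept.

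**Figure D5:**
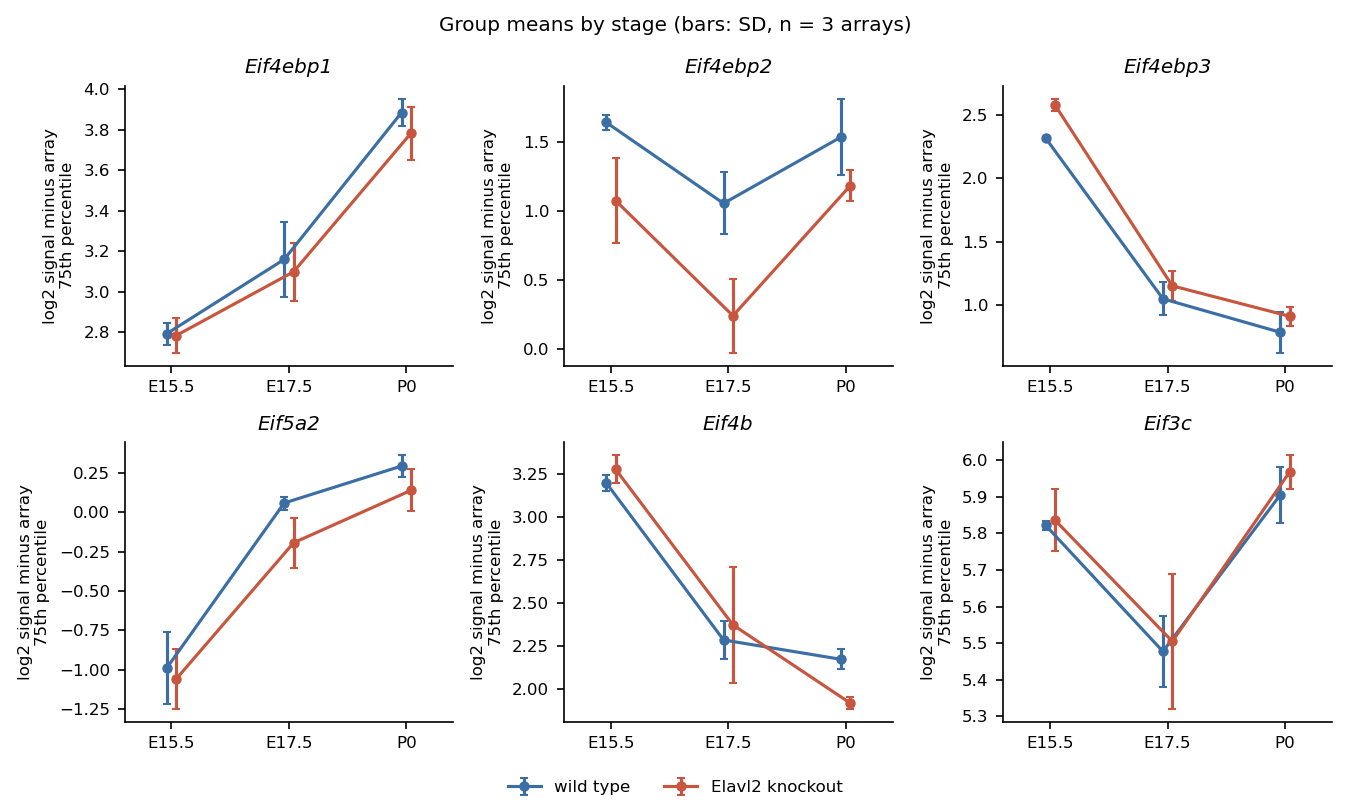
Group means of the log2 signal relative to the array's 75th percentile at 3 stages for Eif4ebp1, Eif4ebp2, Eif4ebp3, Eif5a2, Eif4b and Eif3c (bars: SD, 3 arrays per group). The plotted means carry no run term, and Eif4ebp3 falls from 2.32 to 0.79 in wild type while Eif4ebp1 rises from 2.79 to 3.89.

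Genes around initiation showed mixed directions at P0, where 18.3% of all genes were called higher and 16.1% lower. Of 16 partners of repressed, cap-bound mRNA, 2 were higher and 5 lower, with a median of -0.31. Zar1, an oocyte factor for stored mRNAs, was lowest (-4.80 ± 0.36), and Patl2 (-1.50 ± 0.12) and Cpeb3 (-1.19 ± 0.15) were lower as well. Zar1 and Patl2 are themselves made in oocytes, whose growth markers, Zar1 among them, fell by a median of 3.84 (log2 difference -3.84). The part of oocyte content in the values of these genes was not tested. Of 15 genes for eIF2 stress response targets and phosphatase subunits, 5 were higher and 1 lower. Psat1 (1.18 ± 0.17), Vldlr (0.65 ± 0.10) and Nupr1 (-1.26 ± 0.15) were among them. Of 12 elongation and release factors 2 were higher and 2 lower, led by Eef1e1 (-1.03 ± 0.12). Of 12 poly(A)-binding proteins and partners 4 were higher and 1 lower, led by Paip1 (0.63 ± 0.11). Of 11 genes for eIF4E kinases and the mTOR branch 2 were higher and 3 lower, led by Tsc1 (-1.20 ± 0.14). With the array median, these 5 lists in the same order had 4 genes higher and 3 lower, 5 and 1, 4 and 2, 6 and 0, and 2 and 1. With quantile normalization they had 2 and 8, 4 and 2, 1 and 2, 3 and 2, and 1 and 4, and with normexp and quantile normalization 3 and 8, 5 and 3, 1 and 3, 3 and 3, and 0 and 4.

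The genes whose signal over the 18 arrays ran most like that of Eif4e3 were Epha4 (Pearson's r = 0.977), Iqgap1 (0.951), Ccdc59 (0.946), Lactb (0.946), Chd4 (0.946), Zbtb38 (0.944), Utp14a (0.935) and Mras (0.932). The arrays share stage, genotype, run and scaling, so these values are a description. The r with Eif4e3 was 0.867 for Eif5, 0.841 for Elavl2 and 0.721 for Eif4e. Epha4 was lower in the knockout at all 3 stages too (-0.58, -0.48 and -0.58, each called).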

How the data were processed

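Whole ovaries (XX gonads) were profiled on 18 single-channel Agilent arrays, design 014868. In the deposited scanner files, each spot has a background-subtracted intensity. The program was Agilent Feature Extraction, given as 10.7.3.1 in the file headers but as 9.5 in the submitters' processing notes. The deposited series matrix is on the log2 scale. Every column differs from that array's log2 intensities by a single constant that puts the 75th percentile at 9.62, and genes are not centred.

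Control spots were dropped, as were the 51 to 109 outlier spots of an array. No spot was saturated, and 63.1% to 75.7% of probes were well above background per array. The number of arrays limits the precision. Probes were named by accession through a RefSeq table of GRCm38.p6 (28223 matched), and the probe with the highest mean stood for a gene. Coordinates of probes are the files' own, on mm9.

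limma 3.58.1 in R 4.3.3 fitted 6 groups and the run, with 11 residual degrees of freedom. In simulated data, 50 of 19250 genes were changed at each size of change. There 2-fold changes were recovered in 76%, 80% and 66% of cases at E15.5, E17.5 and P0, and 1.25-fold changes in 12%, 12% and 2%. The data held many more changes at P0, where 34.5% of all genes were called, and that loosens the adjusted p. The simulated shares are therefore no measure of what was recovered at P0. Same-numbered arrays deviated together most at E17.5 (r of 0.12, 0.40 and 0.45), so the block is given beside E17.5. They did so unevenly at E15.5 (0.18, 0.21 and -0.12) and weakly at P0 (0.15, 0.10 and 0.08, against -0.14 to 0.03 for unlike numbers). At P0 the block called 14 initiation factor genes, and Eif1b, Eif3f, Eif4a1, Eif4b and Eif4e lost their calls. At E17.5 the run B arrays of unlike number also deviated together (0.32 and 0.28), so the pairing cannot be told apart from the run.

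Members, lists and markers were chosen with earlier results of these data known. All members could be named, with values per array for Eif4e3, Eif4e and the 3 largest called changes each way per stage. Outside genes were the 8 most correlated, up to 3 per list with the smallest adjusted p at P0, Elavl2 and markers; Eif4e2, Eif4b and the probes singled out were picked after their values were seen. No table of proteins was used here.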

Additional observations from a re-analysis of the deposited data

Results flagged for a closer look

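The genotype difference of Eif2ak1 at P0 departed from that at E17.5, by -0.80 ± 0.19 (limma adjusted p = 0.020). The difference was -0.79 at P0 and 0.01 at E17.5. Leaving out E17.5 wild type replicate 3, E17.5 knockout replicate 3 or P0 wild type replicate 2 took the adjusted p to 0.069, 0.070 and 0.055. It was 0.073 with the replicate block, 0.082 with no run term, 0.070 with the array median, 0.068 with array weights and 0.062 with the mean of probes. Over 28 alternatives it ran from 0.0078 to 0.082, and the call was lost in 10.

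The genotype difference of Eif4e2 at P0 also departed from that at E17.5, by 0.34 ± 0.09 (limma adjusted p = 0.029). The difference was 0.29 at P0 and -0.06 at E17.5. Over 28 alternatives the adjusted p ran from 0.014 to 0.093, and the call was lost in 17 of them, the replicate block (0.093) included. No direction changed in these alternatives for Eif2ak1 or Eif4e2.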

How the results depend on the processing

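Counts of initiation factor genes called moved with many settings. At E15.5 (2 in the model used) the count was 1 with quantile normalization, the array median or normexp, 7 with array weights, and 0 with no filter, the mean of a gene's probes, no run term, the slide as a random block, a 2-fold threshold, only the arrays compared or the replicate block. At E17.5 (4) it was 2 with the array median, the mean of probes or run B only, 1 with no filter, no run term, array weights or the replicate block, and 0 with a 2-fold threshold, only the arrays compared or the single run A pair (added after seeing the data). At P0 (18) it was 0 with a 2-fold threshold and 6 with only the arrays compared. From E15.5 to E17.5 in wild type (16) the 2-fold threshold left 2. From E17.5 to P0 in wild type (25) the array median gave 16, the mean of probes 15 and the 2-fold threshold 0. In the knockout the first step (14) gave 1 with the 2-fold threshold, 1 with only the arrays compared and 9 with the run A pair, and the second (27) gave 15 with the mean of probes, 0 with the 2-fold threshold and 8 with only the arrays compared. The difference of differences (2) gave 1 with the array median, no filter, the slide block, only the arrays compared or run B only, and 0 with the mean of probes, no run term, array weights, the 2-fold threshold or the replicate block. Leaving out each array gave 0 to 1, 1 to 4 and 11 to 18 at the 3 stages, 4 to 14 and 18 to 23 for the wild type steps, 9 to 12 and 19 to 27 for the knockout steps, and 0 to 3 for the difference of differences.

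Eif4e3 relative to Eif4e kept its sign in every alternative run. At E15.5 it was -0.36 with normexp, -0.36 with the mean of probes and -0.22 with the other probes. Leaving out each array gave -0.57 to -0.46, -0.55 to -0.11 and -0.68 to -0.37 at the 3 stages, and -0.53 to -0.38 over the stages.

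Of 2372 values of called genes under alternatives, 1757 kept their call, 611 lost it and 4 changed sign, all with the mean of a gene's probes: Eif4b at P0 (0.0028), and from E17.5 to P0 in wild type Eif1ad (-0.012), Eif2ak4 (0.059) and Eif3d (-0.0078). The causes were not tested, beyond what fewer arrays or a higher threshold bring by construction. The planned comparisons with Eif4e1b were not run, since no probe carries that name. The contrast of the run A pair rests on the spread of the other groups.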
